A study of Mus musculus with 4 samples.

Results

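CD8 T cells were taken from 4 single-cell libraries of mouse bone marrow as the barcodes that carried T cell receptor transcripts together with a CD8 chain. A barcode stands for a droplet with, in most cases, a single cell, and its unique molecular identifiers (UMIs) count captured RNA molecules. Barcodes with 500 to 4000 genes and at most 15% of UMIs from mitochondrial genes were kept, and a CD8 T cell had at least 3 UMIs of Cd3d, Cd3e, Cd3g, Trac and Trbc2 together, at least 1 UMI of Cd8a or Cd8b1, no UMI of Cd4, Foxp3 or Cd79a, and under 10% of its UMIs from S100a8 and S100a9, the most abundant neutrophil transcripts. The members were selected on these genes, so their levels are given below as a description only. There were 1072 CD8 T cells among 31457 cells kept of 36942 barcodes.

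The marrow came from femur and tibia after red cells had been lysed, and the study asked what loss of IL-6 does in a mouse that goes from myelodysplasia to leukemia. All mice were C57/B6 and 12 months old by the labels, and each genotype was 1 library made with the 10x 3′ v3 chemistry. TWT carried intact Il6, mDia1 and miR146a. IL-6 KO lacked IL-6 alone, DKO lacked mDia1 (the formin encoded by Diaph1) and miR146a but had IL-6, and TKO lacked all 3 genes. The knockouts are constitutive, so the T cells and every other marrow cell carried the same alleles. The sources used here do not state the number of mice per library.

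With 1 library per genotype there was no replicate check and no test between genotypes. The intervals below are exact 95% intervals that cover counting error only. Diaph1 had 163 and 178 CPM (UMIs of a gene per 1000000 UMIs) over all barcodes of TWT and IL-6 KO, and 11.4 and 12.4 in DKO and TKO. Il6 tags had 0.807 CPM in TWT, 9.89 CPM in IL-6 KO, 0.235 CPM in DKO and 8.60 CPM in TKO, which is higher in the libraries labelled as lacking IL-6. Whether these tags lie within the deleted stretch was not checked, so Il6 neither bears out nor contradicts the labels here, and TKO and IL-6 KO stand for the libraries labelled so. Xist UMIs came almost entirely from the IL-6 KO library, and the other libraries carried Y-linked transcripts, so sex and IL-6 genotype cannot be told apart in the comparison of IL-6 KO with TWT.

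CD8 T cells recognize peptides on MHC class I and, once activated, kill the presenting cell with perforin and granzymes and secrete interferon-γ and chemokines. Naive and central memory cells keep Tcf7, Lef1 and Ccr7, which hold them in a quiescent, lymph node homing state, and effector cells lose these genes and take up Ccl5, Nkg7 and granzymes. Bone marrow is a known home of memory CD8 T cells, which are kept there by IL-7 and IL-15. miR-146a is a small RNA induced by NF-κB that restrains the same pathway through Traf6 and Irak1, and mDia1 is an actin-nucleating formin with a role in T cell migration and adhesion. IL-6 acts through Il6ra and the shared chain Il6st to activate STAT3.

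The miRNA that DKO and TKO lack is shown with its paralog from another chromosome, which was not deleted, because both have the same seed, the stretch in capitals that pairs with target sites (bases 2 to 8 of the mature strand, from RefSeq on GRCm38.p6). miR-146a lies at chr11:43374435-43374456 on the minus strand and miR-146b at chr19:46342790-46342811 on the plus strand. The match to this seed in a 3′ UTR is AGTTCTC, or AGTTCTCA where an A follows, and the genes that hold it are given after the expression results.
mmu-miR-146a-5p: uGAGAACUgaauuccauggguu
mmu-miR-146b-5p: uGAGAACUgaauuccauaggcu

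CD8 T cells were the largest class of T cells in the DKO library, and in the other libraries they were fewer than the T cells with neither CD4 nor CD8 transcripts. TWT held 127 CD8 T cells, IL-6 KO 112, DKO 749 and TKO 84. They made up 1.87% (1.56 to 2.22) of the cells kept in TWT, 1.5% (1.24 to 1.80) in IL-6 KO, 7.78% (7.25 to 8.33) in DKO and 1.11% (0.887 to 1.37) in TKO. The DKO share stood above the intervals of the other libraries, and the TKO share was the lowest. The DKO share was 4.16 times (3.44 to 5.06) that of TWT and 7.0 times (5.58 to 8.88) that of TKO. TKO had 0.594 times (0.446 to 0.789) and IL-6 KO 0.801 times (0.616 to 1.04) the TWT share, and the latter interval spans equality.

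Of the T cell classes, CD8 T cells alone were a larger share of DKO than of TWT cells. Of the 367 TWT T cells (barcodes that met the same CD3 and receptor criteria), 34.6% were CD8 T cells, against 32.6% of 344 in IL-6 KO, 74.1% (71.3 to 76.8) of 1011 in DKO and 38.7% of 217 in TKO. CD4 T cells, the helper and regulatory lineage, made up 1.05% of the TWT cells, 0.482% of the IL-6 KO cells, 0.582% of the DKO cells and 0.450% of the TKO cells kept. The ratio of CD8 to CD4 T cells was 1.79 (1.33 to 2.43) in TWT, 3.11 (2.12 to 4.66) in IL-6 KO, 13.4 (10.2 to 17.9) in DKO and 2.47 (1.64 to 3.8) in TKO. T cells with neither CD4 nor CD8 transcripts made up 2.46%, 2.61%, 2.08% and 1.30% of cells in the same order of libraries, a DKO share 0.845 times (0.685 to 1.04) that of TWT. NK cells had 1.58 times and B cells 0.285 times their TWT share in DKO. A share depends on the other cells loaded, and more CD8 T cells cannot be told apart from fewer cells of other kinds.

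**Figure D1:**
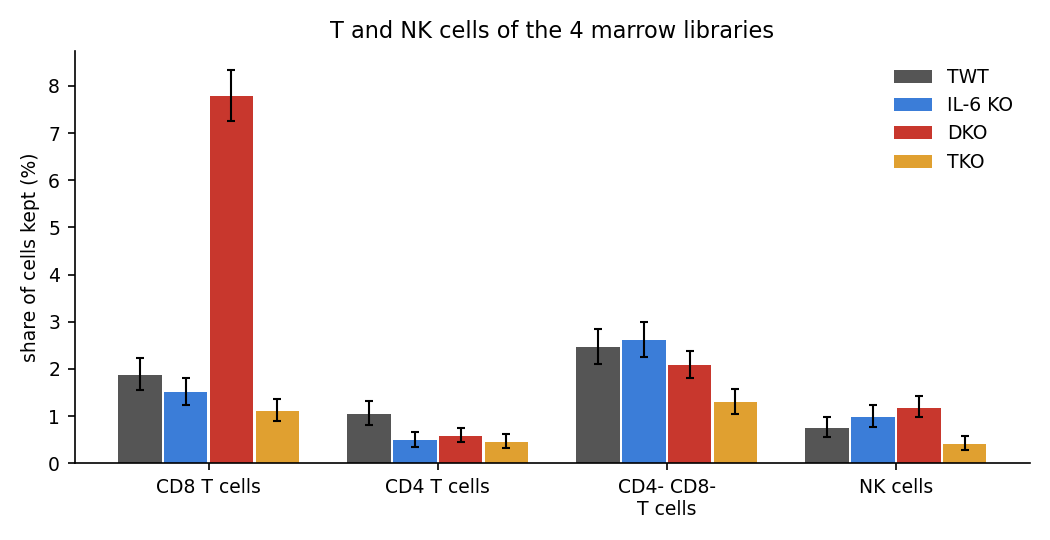
Share of the cells kept (%, y axis) that were CD8 T cells, CD4 T cells, T cells with neither transcript and NK cells in each of the 4 libraries; error bars are exact 95% binomial intervals. CD8 T cells stand at 7.78% in DKO and at 1.11 to 1.87% in the other libraries, while CD4 T cells stand between 0.450 and 1.05% in all of them.

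Most of the selected cells carried both CD8 chains, and the libraries were close in depth per member. Both Cd8a and Cd8b1 were detected in 65.4% of TWT, 57.1% of IL-6 KO, 75.4% of DKO and 59.5% of TKO members. Members with Cd8a alone, a pattern that intraepithelial-type and innate-like T cells also have, were 18.9%, 27.7%, 6.68% and 31.0%. In DKO the Cd8a-only share was thus the lowest. The median TWT member held 16 UMIs of the CD3 and receptor genes, and those of IL-6 KO, DKO and TKO held 15.5, 22 and 24. An innate-lineage gene (Trdc, Zbtb16, Ncr1 or Klrb1c) was seen in 18.9%, 22.3%, 16.6% and 20.2% of members. The median depth was 4555 UMIs and 1583 genes per member in TWT, 4607 and 1604.5 in IL-6 KO, 4231 and 1489 in DKO, and 4655.5 and 1690.5 in TKO.

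Ccl5, a gene of antigen-experienced T cells, was frequent on both sides of the CD8 criterion. The 47 DKO members with a single CD8 UMI all had Ccl5, as did 18 of 19 such members in TWT, 19 of 22 in IL-6 KO and 16 of 16 in TKO. Just outside, with no CD8 UMI, Ccl5 was detected in 86.2% of 167 T cells in TWT, 84.1% of 195 in IL-6 KO, 72.5% of 200 in DKO and 78.6% of 98 in TKO. CD8 T cells whose CD8 RNA was not captured cannot be told apart from other T cells with neither transcript. With a Cd8b1 UMI required, with the gate applied after thinning every cell to 2000 UMIs, or with the other changes listed at the end, the ratio of DKO to TWT lay between 3.85 and 4.79 and that of DKO to TKO between 6.63 and 9.46. The libraries shared 19 to 36 barcode sequences per pair, and no shared barcode was a member in both.

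Some members carried transcripts of other marrow cells. Monocyte and macrophage markers (14 genes, among them lysozyme Lyz2, the growth factor receptor Csf1r, the C1q chains of complement and Ccr2, which T cells also express) summed to 277 CPM in TWT, 1136 CPM in IL-6 KO, 4721 CPM in DKO and 306 CPM in TKO. All 14 were seen in DKO and 10 in each other library, with C1qb, C1qc, F13a1 and Adgre1 at 0 in TWT. In DKO 64 members held at least 10 such UMIs, and the tenth of members with the most held 88.8% of them. Barcodes with at least 10 UMIs of monocyte, erythroid, B cell, plasma cell, dendritic cell or granule-protease genes, or at least 100 UMIs of neutrophil genes, are called mixed here, a definition chosen after these values were seen. There were 1 of 127 in TWT (0.787%), 10 of 112 in IL-6 KO (8.93%), 66 of 749 in DKO (8.81%) and 4 of 84 in TKO (4.76%). Mixed DKO members had a median of 10900 UMIs, against 4018 for the rest, and all 37 DKO members that a doublet caller marked were among them.

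**Figure D2:**
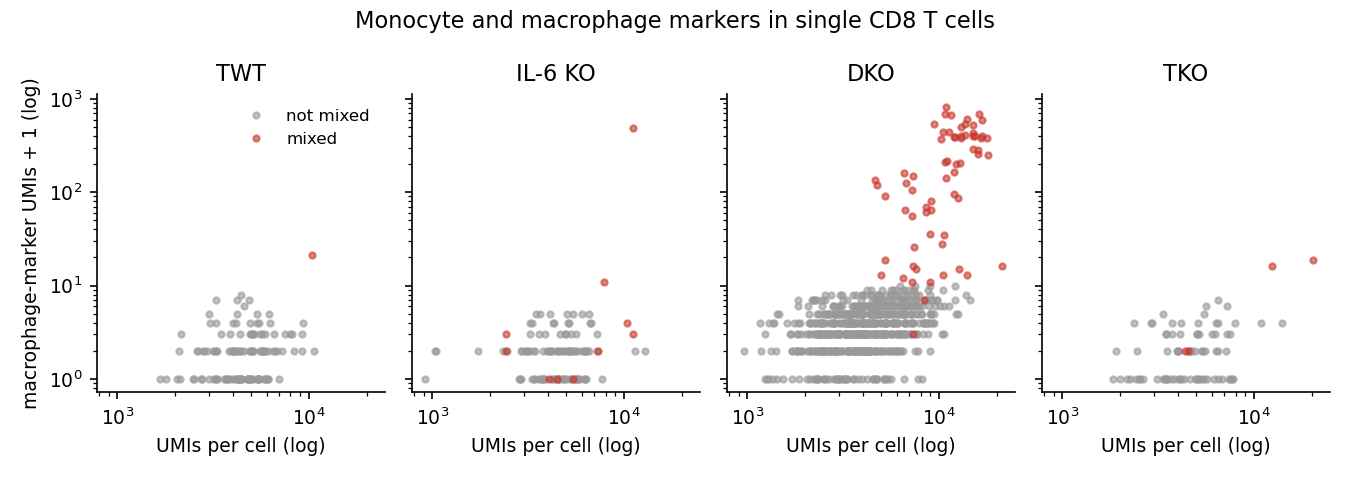
UMIs of 14 monocyte and macrophage markers plus 1 (y axis, log scale) against total UMIs (x axis, log scale) for each CD8 T cell, 1 panel per library; red points are mixed barcodes. In DKO 64 cells hold 10 or more marker UMIs, against 1 in TWT and 2 each in IL-6 KO and TKO.

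Without the mixed barcodes the macrophage markers summed to 249 CPM in TWT, 235 CPM in IL-6 KO, 682 CPM in DKO and 249 CPM in TKO. B cell markers summed to 307, 272, 120 and 267 CPM, and Cd79a was at 0 in every library by the rule. Neutrophil markers, the most abundant transcripts of this marrow, summed to 2111, 2657, 3851 and 1794 CPM, with a median of 9, 12, 17 and 8 UMIs per member before the removal. Plasma cell markers ran the other way, at 405, 434, 58.1 and 95 CPM. Neutrophil and macrophage RNA thus stood higher, and B and plasma cell RNA lower, in the DKO members than in those of TWT, and their part in the results below was not tested. Without the mixed barcodes CD8 T cells were 7.14% of DKO cells. Unless stated otherwise, levels and ratios below are from the members that were not mixed, as the UMIs of a gene summed over them, as CPM.

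Genes were compared where the higher of the paired libraries reached 50 CPM and the pair held 30 UMIs or more, and were called when at least 2-fold apart. Over all members, 248 of 2885 genes were called higher in DKO than in TWT (8.60%) and 209 lower (7.24%). Without the mixed barcodes the counts were 199 of 2834 (7.02%) and 208 (7.34%). The comparison of IL-6 KO with TWT had the fewest calls of the 4 comparisons, with 46 of 2744 genes higher (1.68%) and 25 lower (0.911%), or 42 (1.51%) and 32 (1.15%) of 2788 without the mixed barcodes. With 1 library each, such a count holds counting error and mouse-to-mouse differences as well as genotype. The 10 genes highest in DKO that were also at least 2-fold above TKO and IL-6 KO were, over all members, Saa3, Capg, Ctsh, H2-Aa, Apoe, H2-Eb1, Napsa, H2-Ab1, Cd74 and Fn1. These are macrophage and MHC class II genes and were held mainly by the mixed barcodes. Cd74, Apoe, Fn1, H2-Aa and H2-Ab1 were among the marker genes that defined a mixed barcode, so their fall follows from that definition. Cd74 in DKO had 738 CPM over all members and 38.9 without the mixed barcodes, and Apoe had 764 and 72.9. Saa3, which was not among the defining genes, had 442 and 42.6. All 10 still had a positive log2 ratio of DKO to TWT without the mixed barcodes. It was 5.84 for Capg, 5.45 for Saa3, 3.40 for Ctsh, 3.32 for Napsa and 2.74 for Apoe. H2-Aa had 2.08, Fn1 1.74, H2-Eb1 1.56, Cd74 0.92 and H2-Ab1 0.81.

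Cytotoxic genes were higher in the DKO CD8 T cells, led by granzyme B. Gzmb, the protease that starts death in the target cell, had 10.1 CPM in TWT, 14.7 CPM in IL-6 KO, 633 CPM in DKO and 172 CPM in TKO. The DKO level was 62.8 times (28.8 to 171) that of TWT, and TKO stood between DKO and the other libraries. The size of this ratio rests on few TWT molecules, since over all members TWT had 12 Gzmb UMIs, of which the 1 mixed barcode held 6. The log2 ratio was 4.74 over all members, 5.84 without the mixed barcodes and 7.13 when the cell with most Gzmb UMIs in each library was also left out. Gzmk, a granzyme of memory and aging-associated CD8 T cells, had 87.3, 46.1, 252 and 105 CPM in the same order, a DKO level 2.88 times (2.18 to 3.90) the TWT one. Nkg7, a membrane protein of cytotoxic granules, had 1165, 1144, 2610 and 1958 CPM. Of 14 cytotoxic effectors measured (18 on the list), 6 were called higher in DKO (all genes 7.02%) and none lower. These were Fasl, Gzmb, Gzmk, Gzmm, Nkg7 and Serpinb9, the last an inhibitor of granzyme B that protects the killer cell itself. The median log2 ratio of the list was 0.94, against 0.09 for all genes compared. Prf1, the pore-forming perforin, stayed below 2-fold with 113 CPM in TWT and 171 in DKO.

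Ccl4 and Ccl3 were highest in DKO, with TKO next, while the chemokine genes of highest level were not called. The log2 ratio of DKO to TWT was 0.40 for Ccl5 and -0.04 for Xcl1. Ccl4, a chemokine that draws in monocytes and T cells, had 21.8 CPM in TWT, 46.1 CPM in IL-6 KO, 328 CPM in DKO and 77.0 CPM in TKO, a DKO level 15 times (8.75 to 28.3) that of TWT. Ccl3, a related chemokine, had 3.36, 2.10, 126 and 23.1 CPM. A few cells carried much of this, since 1 DKO cell held 227 of 1043 Ccl4 UMIs (21.8%) and 1 cell held 136 of 411 Ccl3 UMIs (33.1%) over all members. Ifng had 5.04, 14.7, 43.9 and 15.4 CPM and stayed under the floor. Of 11 chemokine and chemokine receptor genes measured, Ccl3, Ccl4, Cxcr3 and Cxcr6 were called higher in DKO (all genes 7.02%) and none lower. Cxcr3, a receptor for interferon-induced chemokines, was nearly equal in DKO and TKO at 231 and 249 CPM.

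Ly6a was the adhesion and memory surface gene furthest apart. It encodes Sca-1, an antigen of activated and memory T cells that interferons induce, and had 95.7 CPM in TWT, 64.9 CPM in IL-6 KO, 783 CPM in DKO and 92.4 CPM in TKO. The DKO level was 8.18 times (6.29 to 10.8) that of TWT, and the TKO level was like that of TWT. Cd69, an early activation and tissue-retention gene, had 65.5, 60.8, 280 and 126 CPM, a DKO to TWT ratio of 4.27 (3.10 to 6.04). It was also on a list of immediate early and dissociation stress genes. Of the 16 on that list with an annotated 3′ UTR, 3 were called higher and none lower, and their median log2 ratio was 0.58. Lgals1, a galectin of activated T cells, had 244, 283, 922 and 441 CPM. Cd48, Cd69 and Ly6a were called higher and Spn lower of 17 adhesion and memory surface genes, against 7.02% and 7.34% of all genes. Cd44, the usual protein marker of memory cells, had 119, 115, 88.4 and 128 CPM and was not higher in DKO.

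Exhaustion and checkpoint genes were mostly too low to compare, with 3 of 16 measured. Cd160 and Pdcd1 were called higher in DKO (all genes 7.02%). Pdcd1, the PD-1 receptor, had 5.04 CPM in TWT, 0 CPM in IL-6 KO (interval up to 7.73), 51.5 CPM in DKO and 18.0 CPM in TKO. Cd160 had 60.5, 60.8, 193 and 190 CPM, so that DKO and TKO were alike in it. Lag3 had 1.68, 6.29, 38.6 and 28.2 CPM, under the floor in every library, and Tox had 82.3, 39.8, 90.4 and 64.2 CPM. Id2, a transcriptional regulator of effector cells, and Batf, an AP-1 factor induced by receptor signals, were the called transcription factors that were higher in DKO. Of 8 effector and memory transcription factors with an annotated 3′ UTR, 2 were called higher and 1 lower, against 7.02% and 7.34% of all genes. Tbx21 and Eomes, the T-box factors of effector and memory cells, had 94.0 and 171 CPM in TWT and 59.4 and 98.7 in DKO, both within 2-fold.

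Naive and quiescence genes were lower in the DKO CD8 T cells, with 9 of 14 measured called lower and none higher. Among all genes compared 7.34% were called lower. Tcf7, the factor of naive and self-renewing memory T cells, had 452 CPM in TWT, 413 CPM in IL-6 KO, 142 CPM in DKO and 277 CPM in TKO, a DKO level 0.313 times (0.268 to 0.366) that of TWT. Lef1, its partner, had 274, 300, 108 and 167 CPM. Actn1, an α-actinin of naive T cells, had 104, 132, 14.2 and 61.6 CPM. Bach2, which restrains effector differentiation, had 62.1, 77.5, 19.1 and 64.2 CPM. The other called genes were Foxo1, Foxp1, Klf3, Nsg2 and Satb1, and the median log2 ratio of the list was -1.16. For all of these DKO was the lowest of the 4 libraries. Il7r, the receptor for the survival cytokine IL-7, did not follow them, with 502, 423, 473 and 203 CPM, and was lowest in TKO.

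Some inhibitory NK receptors were among the genes lowest in DKO. Klra1 had 65.5 CPM in TWT, 29.3 CPM in IL-6 KO, 2.31 CPM in DKO and 41.1 CPM in TKO, and Klra7 had 85.6, 88.0, 14.8 and 66.7. Both are Ly49 receptors for MHC class I, and their reads may be split among near-identical family members. They were the called genes of 11 NK receptors measured, while 7.34% of all genes were called lower. Klrd1, the CD94 partner of NKG2 receptors, had 314, 262, 328 and 321 CPM. Ikzf2, which encodes Helios and marks innate-like and Ly49-bearing CD8 T cells, had 121, 113, 27.1 and 187 CPM, a DKO to TWT ratio of 0.224. Il2rb, a shared IL-2 and IL-15 receptor chain, had 573, 561, 322 and 760 CPM, a ratio of 0.563. Ly49, Helios and Il2rb transcripts were thus all lowest in DKO. Immunoglobulin RNA was also on the list of lowest genes, as Iglc1 with 134, 54.5, 6.60 and 15.4 CPM, a transcript of B and plasma cells.

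**Figure D3:**
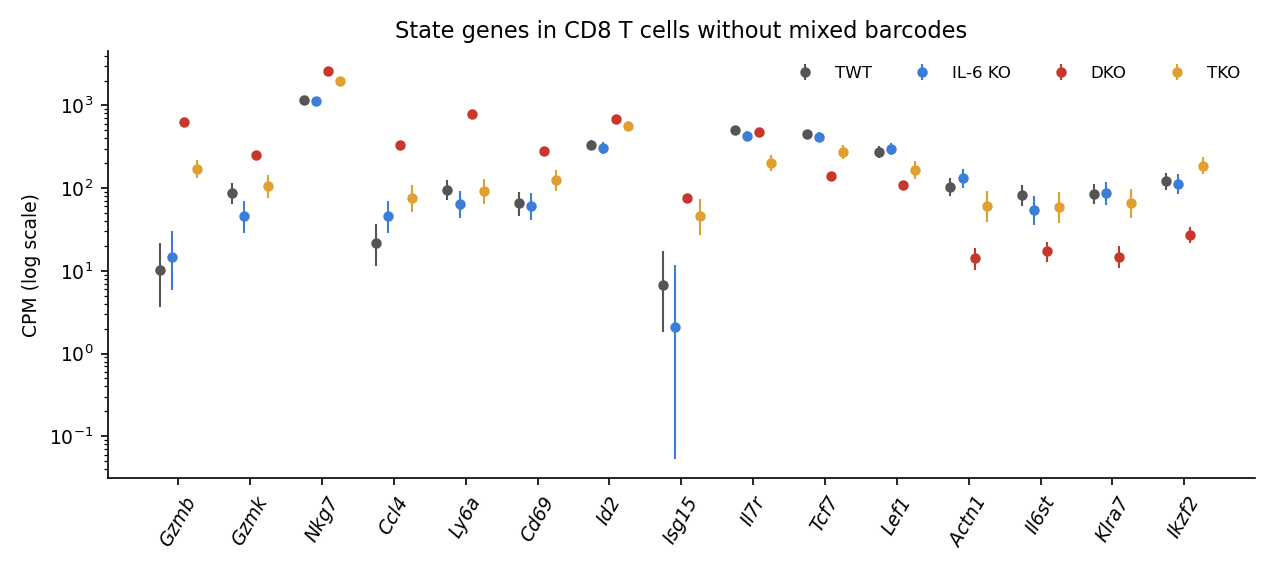
CPM (y axis, log scale) of state genes summed over the CD8 T cells without mixed barcodes in each library, with exact 95% Poisson intervals as bars. Gzmb stands at 633 CPM in DKO and 10.1 in TWT, and Tcf7 at 142 in DKO and 452 in TWT.

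Several of these differences were also seen in the T cells with neither CD4 nor CD8 transcripts of the same libraries. Gzmb there had 18.3 CPM in TWT and 563 in DKO, a ratio of 30.8, and Ly6a had a ratio of 5.25 (4.15 to 6.72). Tcf7 had a ratio of 0.449 and Klra7 of 0.147 in these cells. In CD4 T cells Ly6a was 4.0 times and Cd69 4.94 times the TWT level, and Tcf7 0.632 times. B cells, which lack the cytotoxic program, had under 3 CPM of Gzmb in every library, and by summed level Ly6a was 1.23 times and Cd69 2.72 times that of TWT there. Il7r differed between the cell types, being 0.941 times the TWT level in CD8 T cells, 2.14 times in CD4 T cells and 2.39 times in those with neither transcript.

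To compare cells rather than sums, each cell was thinned to 2000 UMIs, which left out 2 TWT, 4 IL-6 KO, 39 DKO and 3 TKO members. Mixed barcodes were kept in these shares. Ccl5, a chemokine that antigen-experienced CD8 T cells store as RNA, was found in 81.6% (73.7 to 88.0) of members in TWT, 72.2% (62.8 to 80.4) in IL-6 KO, 95.8% (94.0 to 97.1) in DKO and 85.2% (75.6 to 92.1) in TKO. Unthinned the shares were 81.9%, 75.9%, 97.2% and 85.7%. B cells, which should lack Ccl5, had 1.18%, 1.19%, 4.57% and 0.403% at the same thinned depth, from median depths of 2589.5 to 2974 UMIs. Most CD8 T cells of every library were therefore Ccl5-bearing, and the DKO interval lay above the others.

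Gzmb was found in 3.2% of thinned TWT members, 2.78% of those of IL-6 KO, 35.9% of those of DKO and 13.6% of those of TKO. Ly6a was found in 14.4%, 10.2%, 65.4% and 14.8%, against 22.2%, 14.7%, 57.1% and 15.4% of B cells, so that DKO had the highest share in both cell types. Gzmk had 20%, 9.26%, 31.4% and 16.0%, and Nkg7 75.2%, 83.3%, 95.9% and 88.9%. Tcf7 was found in 62.4%, 50.9%, 22.1% and 38.3% of members and Lef1 in 40.0%, 44.4%, 17.2% and 27.2%. For each of these genes DKO stood at the same end by share of cells as by summed level.

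**Figure D4:**
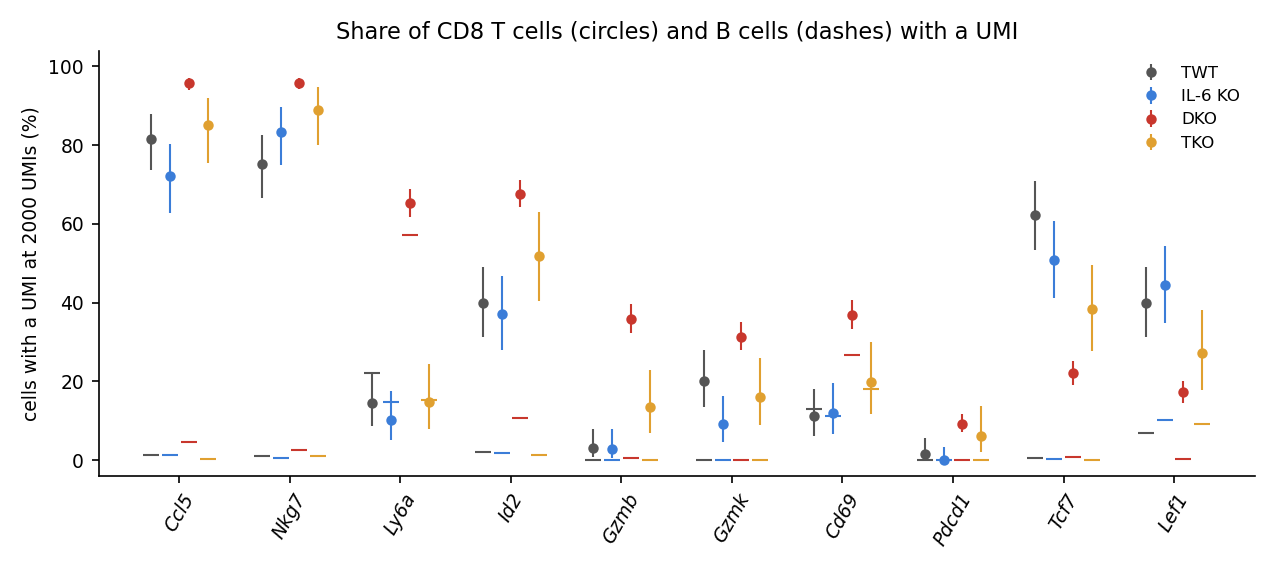
Share of cells (%, y axis) with at least 1 UMI of each gene after thinning to 2000 UMIs per cell; circles are CD8 T cells with exact 95% binomial intervals and dashes are B cells of the same library. Gzmb is found in 35.9% of DKO cells and in at most 13.6% of those of the other libraries, and Tcf7 in 22.1% of DKO cells and at least 38.3% elsewhere.

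Tcf7 and Lef1 were lowest in DKO within the Ccl5-bearing cells as well as among the rest. Tcf7 had 403 CPM in the 103 Ccl5-bearing cells of TWT, 346 in the 76 of IL-6 KO, 134 in the 662 of DKO and 245 in the 68 of TKO. Among cells without Ccl5 it had 689, 602, 312 and 457 CPM, from 23, 26, 21 and 12 cells. Lef1 had 182, 196, 103 and 127 CPM in the Ccl5-bearing cells and 718, 594, 228 and 389 in the rest. Between DKO and TKO the intervals were apart for Tcf7 in the Ccl5-bearing cells alone (121 to 148 and 195 to 305). They overlapped for Lef1 in those cells (91.5 to 115 and 91.6 to 172) and for both genes in the rest. Not all naive genes followed Tcf7 and Lef1. Ccr7 had 44.5 CPM in TWT and 42.8 CPM in DKO among the Ccl5-bearing cells and 325 and 342 CPM among the rest. Klf2, a factor of quiescent T cells, had 381 and 417 CPM with Ccl5, and Il7r 474 and 481 CPM. Gzmb had 12.1, 19.8, 659 and 203 CPM in cells with Ccl5, and in cells without it had 60.8 in DKO and 0 UMIs in the other libraries, whose 12 to 26 cells allow up to 62.4 CPM. Ly6a had 767 CPM in the 21 DKO cells without Ccl5 and 9.84 in those of TWT, so that it was high in DKO in both classes.

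Within the DKO library the cells with a Gzmb UMI at 2000 UMIs carried other effector genes more often. These were 241 of 644 cells without mixed barcodes. Gzmk was found in 44.8% (38.4 to 51.3) of them and in 25.3% (21.1 to 29.9) of the 403 others, Prf1 in 36.9% and 19.4%, and Gzma in 7.05% and 0.248%. Ccl4 was found in 31.1% and 12.2%, Ifng in 12.4% (8.56 to 17.3) and 1.49% (0.548 to 3.21), and Pdcd1 in 17% and 5.46%. These cells thus also held the inhibitory receptor Pdcd1 more often. Tcf7 ran the other way with 11.2% and 30%, as did Il7r with 31.5% and 56.6%. For Cd69, at 36.5% (30.4 to 42.9) and 39.2% (34.4 to 44.2), and for the division gene Mki67, at 2.90% and 2.23%, the intervals overlapped. In TKO 11 of 77 cells had Gzmb, and Gzmk was found in 8 of these 11 and in 5 of the 66 others.

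Of 18 type I interferon response genes measured (42 on the list), 6 were called higher in DKO than in TWT (all genes 7.02%) and none lower. The median log2 ratio of the list to TWT was 0.50 in DKO, 0.47 in TKO and 0.42 in IL-6 KO. For all genes compared it was 0.09, 0.18 and 0.05, so the list as a whole stood above all genes in each library. Between DKO and TKO the list median was 0.14, against -0.08 for all genes, with Ifit3 alone called. The list summed to 3885 CPM in DKO, 3849 CPM in TKO, 3329 CPM in IL-6 KO and 2877 CPM in TWT. Isg15, a ubiquitin-like protein, had 6.72 CPM in TWT, 2.10 CPM in IL-6 KO, 75.2 CPM in DKO and 46.2 CPM in TKO, a DKO level 11.2 times (4.32 to 41.5) that of TWT. Ifit3, which senses and blocks viral RNA with its partners, had 11.8, 10.5, 83.2 and 33.4 CPM. Isg20, an RNA exonuclease, had 3.36, 4.19, 56.1 and 28.2 CPM, and Zbp1, a sensor of unusual nucleic acid, had 33.6, 21.0, 105 and 61.6. TKO lay between DKO and TWT for each of them. Bst2 and Phf11b were also called. Of 22 interferon-γ and MHC class I genes, Gbp2, Igtp, Psmb10, Psmb8 and Psme2 were called higher, and H2-K1, which encodes a class I heavy chain, had 2692 CPM in TWT and 3856 in DKO, within 2-fold.

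Promoter sequence of these genes was searched for GAAANNGAAA on both strands (TTTCNNTTTC on the other), the core of the element that interferon-activated factors bind, with overlapping matches kept. Of 27025 genes with a RefSeq promoter from 250 bases before to 50 after the gene's start, 1079 held it (3.99%), as did 111 of the 2262 compared genes that matched by symbol (4.91%). On the interferon list it was 21 of 34 (61.8%), and of the called ones 4 of 5. Isg20, the called gene of this list with the largest ratio, held no match in its promoters, and Zbp1 had no promoter matched by symbol. The promoters of Isg15 and Ifit3 are shown as examples that hold matches, in capitals (GRCm38.p6, written along each gene's strand). Isg15 lies on the minus strand, chr4:156200769-156201068, with 3 overlapping matches that start 78, 72 and 66 bases before the gene's start. Ifit3 lies on the plus strand, chr19:34583279-34583578, with matches 156 and 122 bases before it. A match describes the letters and is neither a proven site nor a cause.
Isg15: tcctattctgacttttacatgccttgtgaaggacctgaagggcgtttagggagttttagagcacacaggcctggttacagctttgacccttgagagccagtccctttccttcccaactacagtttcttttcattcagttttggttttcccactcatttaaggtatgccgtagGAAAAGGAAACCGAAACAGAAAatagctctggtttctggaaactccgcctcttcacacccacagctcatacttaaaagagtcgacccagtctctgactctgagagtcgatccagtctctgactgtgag
Ifit3: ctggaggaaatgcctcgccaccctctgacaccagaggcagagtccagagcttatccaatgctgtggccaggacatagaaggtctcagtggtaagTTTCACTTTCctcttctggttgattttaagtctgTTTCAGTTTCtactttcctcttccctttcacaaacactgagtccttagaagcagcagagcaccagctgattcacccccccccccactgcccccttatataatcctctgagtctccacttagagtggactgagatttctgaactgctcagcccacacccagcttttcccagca

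The receptor chains for IL-6 had fewer transcripts in the DKO CD8 T cells than in those of TWT. Il6st, the signaling chain gp130, had 82.3 CPM in TWT, 54.5 CPM in IL-6 KO, 17.2 CPM in DKO and 59.0 CPM in TKO, a DKO level 0.209 times (0.138 to 0.315) that of TWT. Il6ra, the IL-6 binding chain, had 62.1, 81.7, 15.5 and 35.9 CPM, a ratio of 0.25. For Il6ra the log2 ratio was -1.94 without the mixed barcodes and -1.10 over all members, of which those with a Ccl5 UMI had -0.14. Without the mixed barcodes, 22 TWT UMIs of Il6ra lay in the 23 cells without Ccl5 and 15 in the 103 cells with it, and among cells with Ccl5 TKO had 9.08 CPM (1.87 to 26.5) and DKO 13.8 CPM (9.86 to 18.8). Tyk2, a kinase bound to gp130 and to interferon receptors, had 53.7, 46.1, 16.8 and 66.7 CPM. Socs3, the feedback inhibitor that STAT3 induces, was higher at 26.9, 27.2, 55.8 and 28.2 CPM, a ratio of 2.08 (1.24 to 3.71). Stat3 itself had 90.7, 98.5, 93.4 and 131 CPM. Of 12 IL-6 and STAT3 genes measured, 1 was called higher (all genes 7.02%) and 3 lower (all genes 7.34%). The median log2 ratio of the list was -0.11, against 0.09 for all genes compared. Il6st was also lower in DKO among T cells with neither CD4 nor CD8 transcripts (ratio 0.300) and B cells (0.295), while Il6ra was not lower in B cells (1.47).

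Among the other lists, proteasome genes had 8 of 22 called higher in DKO, S100 and annexin genes 6 of 14, glycolysis genes 2 of 10 (Gapdh and Tpi1) and nuclear oxidative phosphorylation genes 4 of 38, with none lower. Of all genes 7.02% were called higher, which the last of these lists was close to. S100a4 and S100a6, calcium-binding proteins of motile and effector cells, had 104 and 976 CPM in TWT and 488 and 3036 in DKO. Over all members Capg, named above with the macrophage genes, and Lgals3 had the largest changes of the S100 and annexin list. T cell receptor signaling genes had none of 23 called, and the ribosomal protein list 1 higher and 1 lower of 84. These were Rpl29 and Rps6ka3, and the latter encodes a kinase rather than a ribosomal protein. Of 12 NF-κB and miR-146a genes measured, Nfkbia alone was called, with 109 CPM in TWT, 145 CPM in IL-6 KO, 288 CPM in DKO and 167 CPM in TKO. It encodes an inhibitor of NF-κB that the pathway induces. Of 31 actin and formin genes, Vim was higher and Diaph1 and Myh9 lower. Costimulation genes had Slamf6 and cytokine receptors Il17ra called lower, 1 of 9 and 1 of 14 genes with an annotated 3′ UTR. Of all genes 7.34% were called lower, which the actin, costimulation and cytokine receptor lists were close to.

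Genes with a miR-146a site in their 3′ UTR were not higher in the CD8 T cells that lack the miRNA. The longest annotated 3′ UTR of a gene was searched on its own strand for the sites given above. The 129 genes with AGTTCTCA had a median log2 ratio of DKO to TWT of -0.25, the 226 with AGTTCTC only had -0.30, and the 2443 without either had 0.14. The genes with a site have longer UTRs, a median of 3269 and 2732 bases against 996. Among UTRs of at least 1000 bases the medians were -0.34 for 308 genes with a site and -0.22 for 1218 without. Their lengths still differed, with a median of 3396 bases with a site and 2130.5 without, so length was not matched here either. In TKO, which lacks the miRNA too, the medians against TWT were 0.16, 0.11 and 0.20. Traf6, with 4 sites, had 11.8, 16.8, 11.2 and 12.8 CPM in TWT, IL-6 KO, DKO and TKO, and Irak1, with 2, had 57.1, 81.7, 45.9 and 77.0. Both are classical targets. Traf6 was under the floor in every library, and Irak1 was within 2-fold in each comparison. Fgl2, a secreted immunoregulatory protein with 2 sites, had 35.3, 18.9, 145 and 87.3 CPM.

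The ratios of DKO to the other libraries moved with the length of the 3′ UTR. The median log2 ratio of DKO to TWT in CD8 T cells was 0.45 for UTRs under 500 bases, 0.29 from 500 to under 1000, -0.04 from there to under 2000, -0.31 from there to under 4000 and -0.47 from 4000 on. Of the shortest class 13.7% were called higher and 1.89% lower, and of the longest 1.15% and 18.7%. The same fall was seen in T cells with neither transcript, from 0.37 to -0.49, and in B cells, from 0.34 to -0.24. For TKO to TWT the medians in CD8 T cells went from 0.26 to 0.09, and for IL-6 KO to TWT they lay between 0.03 and 0.06. The fall was thus not confined to the CD8 T cells of DKO, and was smaller for TKO to TWT. For TKO to TWT the medians went from 0.18 to -0.02 in T cells with neither transcript and from 0.30 to 0.19 in B cells.

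**Figure D5:**
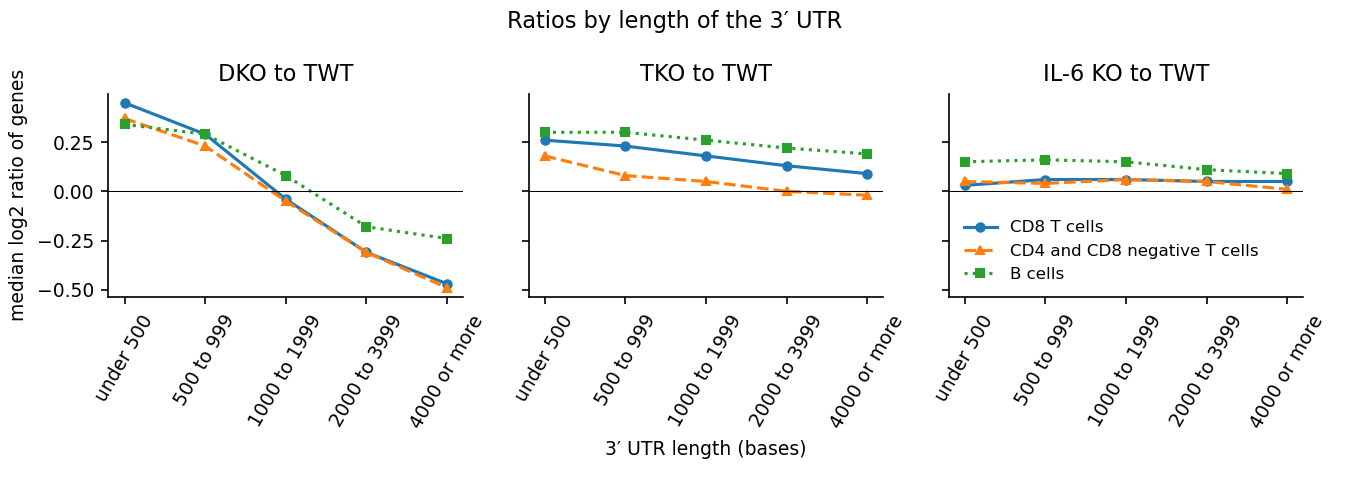
Median log2 ratio of genes (y axis) by length of the longest annotated 3′ UTR (x axis, bases) in CD8 T cells without mixed barcodes, T cells with neither CD4 nor CD8 transcripts, and B cells, for DKO, TKO and IL-6 KO against TWT. In CD8 T cells the DKO line falls from 0.45 to -0.47 and the IL-6 KO line stays between 0.03 and 0.06.

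Some calls were lost when the median of each gene's length class was subtracted. On the log2 scale Gzmb was then at 5.55, Ly6a at 2.57, Tcf7 at -1.63, Lef1 at -1.29 and Il6st at -1.73. The list medians became -0.95 for naive and quiescence genes, 0.73 for cytotoxic effectors, 0.56 for type I interferon genes, 0.51 for the proteasome and 0.39 for S100 and annexin genes. Nuclear oxidative phosphorylation genes, which have short UTRs, went from 0.40 to -0.05, and chemokine and chemokine receptor genes from 0.40 to -0.06. Nkg7 at 0.71, Gzmm at 0.75, Id2 at 0.76, Cxcr3 at 0.60 and Cxcr6 at 0.80 came under the 2-fold limit. So did Foxo1, Foxp1 and Satb1 of the naive list, which then had 7 genes lower in place of 9. Of the proteasome genes 3 stayed 2-fold higher in place of 8, and of the interferon-γ and MHC class I genes 1 in place of 5. What sets the length dependence, and its part in the results, was not tested otherwise. Lars2, the mitochondrial leucyl-tRNA synthetase, was also lower across cell types in DKO, at 0.308 times the TWT level in CD8 T cells and 0.577 times in B cells.

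Against TKO, the DKO CD8 T cells were again higher in granzymes and activation genes. Without the mixed barcodes 81 of 2937 genes were higher in DKO (2.76%) and 243 lower (8.27%), and over all members 118 of 2982 (3.96%) and 223 (7.48%). Gzmb, Gzmk and Serpinb6b of 15 cytotoxic effectors were called higher in DKO, along with Ly6a, Cd69, Ccl3, Ccl4, Pdcd1 and Ifit3. Gzmb was 3.68 times and Ly6a 8.48 times the TKO level. Il7r was higher in DKO, and Actn1, Bach2 and Klf3 lower, among 14 naive and quiescence genes. Tcf7, with 142 and 277 CPM, was within 2-fold. Il6st, Jak2 and Tyk2 were lower and Junb higher in DKO.

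TKO CD8 T cells lack mDia1 and miR146a like those of DKO, and also IL-6. Over all members 138 of 2914 genes were higher in TKO than in TWT (4.74%) and 48 lower (1.65%), and without the mixed barcodes 110 of 2903 (3.79%) and 43 (1.48%). The median log2 ratio of all genes compared was 0.18 here, so genes were shifted upward in TKO as a whole, against 0.05 for IL-6 KO to TWT and -0.08 for DKO to TKO. The genes highest over all members were Mpo, Elane and the hemoglobin genes Hbb-bt, Hba-a2 and Hbb-bs, and single cells held most of their UMIs (356 of 369 for Elane and 971 of 1002 for Hbb-bs). Gzma, a granzyme with 11 of its 25 TKO UMIs in 1 cell, and Gzmb were called higher of 12 cytotoxic effectors, as were Ccl4, Cxcr3, Cd160, Id3 and Klre1, an NK receptor, at 109 CPM in TWT and 285 in TKO. Xcl1, the attractant of cross-presenting dendritic cells, had 176 CPM in TWT, 170 CPM in IL-6 KO, 172 CPM in DKO and 996 CPM in TKO, but 249 of the 395 UMIs in TKO were in 1 cell. Il7r was called lower, and of 18 interferon genes Herc6 and Ifi27l2a were higher. Tsc22d3, a glucocorticoid-induced regulator, had 90.7, 130, 164 and 23.1 CPM, lowest in TKO.

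Between IL-6 KO and TWT no measured cytotoxic effector was called, and of 17 interferon genes Ifi214 alone was higher. Of all genes compared 1.51% were called higher and 1.15% lower. Dapl1, a gene of resting memory cells, had 78.9 CPM in TWT and 193 in IL-6 KO and was called higher. Tox and the chemokine receptor Ccr2 had 82.3 and 104 CPM in TWT and 39.8 and 50.3 in IL-6 KO and were called lower, with Klra1. The hemoglobin genes highest over all members in IL-6 KO were not higher without the mixed barcodes, which hemoglobin UMIs themselves help to define. The division genes Cks2, Mki67, Top2a and Ube2c were higher in IL-6 KO, but this rests on single cells. Over all members 32 of 36 Ube2c UMIs of IL-6 KO came from 1 cell, as did 27 of 32 in TWT. The 1 TWT member of 127 with at least 2 UMIs of Mki67 and Top2a was mixed and so was left out here.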

How the data were processed

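The authors deposited, for each library, a matrix of raw UMI counts per gene and barcode. The submitters' processing notes name Cell Ranger, Seurat 4 and the mm10 build, and the matrix headers give Cell Ranger 3.0.2. The barcodes deposited were used as they stand, and 0 columns of per-sample values were left out. The libraries held 8423 barcodes and 64442126 UMIs in TWT, 8640 and 61292684 in IL-6 KO, 10866 and 85145074 in DKO, and 9013 and 68238807 in TKO.

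Counts were summed over the CD8 T cells of a library and divided by their total. A log2 ratio has a pseudocount of 1 CPM. Each list is described by its calls and its median beside that of all genes compared. Shares have Clopper-Pearson, sums Poisson and ratios exact conditional intervals, all at 95%. With 1 library a genotype, genotypes were compared without a test. CD4 T cells had a Cd4 or Foxp3 UMI and no CD8 UMI, B cells at least 3 Cd79a UMIs and no CD3 or receptor UMI, and NK cells an Ncr1 or Klrb1c UMI and no UMI of the CD3 genes or Cd79a. Doublets called by Scrublet (scanpy 1.11.5) were kept and their removal was an alternative.

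The genes named are the gate genes, the 10 highest and 10 lowest of DKO to TWT that go the same way by 2-fold against TKO and IL-6 KO, the 5 highest and lowest of the TKO and IL-6 KO comparisons with TWT, the leading members of each list by level and by change, and a panel of T cell state genes. Genes named beyond these, such as other called members of a list, Fgl2 and Lars2, were chosen after their values were seen. A few planned genes, and a planned share that rests on one of them, are not reported here, and the lists were counted without them. The members and lists were chosen with earlier results of these data known, so the larger CD8 share in DKO is no independent support for anything. 3′ UTRs are the longest annotated of GENCODE vM21. The scripts were tested on simulated counts, in which 188 of 200 genes with a 4-fold change were recovered. These were Poisson counts from 1 pooled profile without cell-to-cell differences, so they test the scripts and not how reliable the 2-fold calls are. Python 3.11.15, numpy 2.4.6, scipy 1.17.1, pandas 2.3.3 and matplotlib 3.10.9 were used. Alternatives were a required Cd8b1 UMI, a CD3 minimum of 5 UMIs, an S100 limit of 1%, barcodes from 200 genes, gates after thinning, removal of innate-gene members, doublets or mixed barcodes, other pseudocounts, floors, folds and thinning depths, each gene without its top member, and subtraction of the 3′ UTR class median. The last and the removals of mixed barcodes and top members were added after the data were seen.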

Additional observations from a re-analysis of the deposited data

How the results depend on the processing

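No paired analysis was possible because each genotype has 1 library. The CD8 shares moved in 10 of 32 values. With a Cd8b1 UMI required they were 1.52% in TWT, 1.08% in IL-6 KO and 0.767% in TKO. With innate-gene members removed they were 1.52%, 1.16%, 6.49% and 0.886% in TWT, IL-6 KO, DKO and TKO. DKO had 7.19% with barcodes from 200 genes kept, 7.08% with the gate applied after thinning and 7.14% without mixed barcodes. Counts of called genes moved in 41 of 136 values, and are given here as DKO to TWT higher and lower, DKO to TKO higher and lower, TKO to TWT higher and lower, and IL-6 KO to TWT higher and lower where they moved. A floor of 100 CPM gave 128, 85, 58, 84, 45, 14, 13 and 3. No CPM floor gave 957, 677, 714 and 696 in the DKO comparisons, 82 lower in TKO, and 96 and 54 in IL-6 KO. A 3-fold limit gave 95, 32, 58, 43, 27, 10, 13 and 3. A pseudocount of 10 CPM gave 118 lower for DKO to TWT, 125 lower for DKO to TKO, 67 and 26 in TKO, and 25 and 14 in IL-6 KO. For DKO to TKO, Scrublet doublets removed left 76 higher, each gene without its top member 124 lower, and the 3′ UTR class median subtracted 117 lower. For TKO to TWT higher, each gene without its top member gave 70, that together with no mixed barcodes 78, and the 3′ UTR class median subtracted 63. For IL-6 KO to TWT, a Cd8b1 UMI required gave 72 and 58, members thinned to equal totals 76 and 48, innate-gene members removed 53 lower, and no mixed barcodes or top members 29 higher. The Ccl5 shares moved in 3 of 24 values. Ccl5 was in 61.4% of IL-6 KO members without innate genes, in 97.2% of DKO members not thinned and in 93.4% with 2 UMIs required. Of 1776 values of named genes 215 moved and 28 reversed. Among members without Ccl5, a few cells, log2 ratios reversed for Ccl4 (-3.44), Gzmk (-4.93), H2-Eb1 (-3.44) and Zbp1 (-0.11) of DKO to TWT. There the hemoglobin genes also reversed, with Hba-a1 at -2.52, Hba-a2 at -3.00, Hbb-bs at -1.03 and Hbb-bt at -0.33 of IL-6 KO to TWT, and Hba-a2 at -6.13 and Hbb-bs at -1.32 of TKO to TWT. Without mixed barcodes Zeb2 was at -0.02 of DKO to TWT, and of IL-6 KO to TWT Hba-a1 was at -0.71, Hba-a2 at -0.87, Hbb-bs at -0.49 and Hbb-bt at -0.09, and of TKO to TWT Hba-a2 was at -0.59, Hbb-bs at -0.93 and Hbb-bt at -0.50. With top members removed as well, the IL-6 KO values were -0.77, -0.89, -0.53 and -0.14, and the TKO values -0.80, -1.04 and -0.51. With only the top member removed, Hbb-bs was at -0.81 and Hbb-bt at -0.56 of TKO to TWT, and with innate-gene members removed Hba-a2 was at -0.44 of IL-6 KO to TWT. The cause was not tested beyond what each setting removes. The 84 to 127 members of TWT, IL-6 KO and TKO limit those libraries, since 1 cell can move a gene past the floor.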

Other observations

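Division genes were rare in the CD8 T cells of every library. At least 2 UMIs of Mki67 and Top2a were found in 1 of 127 members in TWT (0.787%), 2 of 112 in IL-6 KO (1.79%), 16 of 749 in DKO (2.14%, 1.23 to 3.45) and 1 of 84 in TKO (1.19%). Of the DKO members that were not mixed, 11 of 683 met this (1.61%).

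T cell receptor variable segments, which lie far from the 3′ end and were seldom captured, were spread over several genes in DKO. The 76 Trbv UMIs of DKO members came from 16 genes, of which Trbv12-2 held 15 (19.7%, 11.5 to 30.5). The 157 Trav UMIs came from 44 genes, with Trav13-1 at 13 (8.28%). TWT had 9 Trbv UMIs from 8 genes, IL-6 KO 9 from 6 and TKO 7 from 6, too few for a share. No joined receptor sequence is in these counts, so clones were not analysed here.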
